A study of Mus musculus with 7 samples.

Results

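Cholesterol synthesis and its SREBP and LXR control were followed through 28 genes, taken by symbol from the 23930 genes of one table of RPM, reads scaled to a common total in each library. The members were selected on measured values as well as on function, since the list was drawn up with their RPM difference between hyper- and normocapnia in these same libraries already known. Their levels and differences are therefore given as a description. Where members are counted as called by a fit across all genes, the count describes them and is no independent test, and the share of members that differ cannot be read apart from this choice. All 28 symbols were in the table, 28 at a mean of at least 1 RPM over the libraries and 23 at a mean of at least 10 RPM.

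The RNA came from sorted Pax7-GFP cells of hind leg muscle, in 3 normocapnia (NC1 to NC3) and 4 hypercapnia (HC1 to HC4) libraries. All mice carried the inducible Pax7-GFP reporter, were placed in normocapnia or hypercapnia at 12 weeks for 4 weeks and were collected at 16 weeks of age. Per the methods, tamoxifen was given in chow during the first weeks of the exposure. In this reporter a tamoxifen-dependent Cre made from the Pax7 locus opens a green fluorescent cassette with a CAG promoter, so cells that once expressed Pax7 stay green after Pax7 is lost. Per the study's methods, hypercapnia was a chamber with 10% CO2 and normocapnia was room air. By the same methods the tibialis anterior and gastrocnemius of both groups were injured with cardiotoxin 3 days before all hind leg muscles were collected. The labels do not mention the injury, and the deposited table carries a time of 40 hours in its name, which the sources do not tie to these cells. The genotype labels read C57BL/6 in NC1 and count up by 1 with each library to C57BL/12 in HC4, whereas the growth label gives C57/B6 littermates for all. The study used male and female mice. How many mice stand behind a library, and of which sex, is not stated for these libraries. Errors and tests therefore measure the spread between these libraries.

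The libraries held 14527445 to 23388710 reads, and 1 read was worth 0.0428 to 0.0688 RPM. NC3 stood apart from the others: its 10 most abundant genes took 16.6% of its reads against 8.36% to 12.1% elsewhere, and the median gene at 10 RPM or more lay 0.43 below its mean over the 7 libraries on the log2(RPM + 1) scale. HC1 resembled HC2 (r = 0.993 across genes on the log2 scale) and HC3 resembled HC4 (r = 0.955) more than HC1 or HC2 resembled HC3 or HC4 (r = 0.925 to 0.945), genes not being independent replicates. Across the groups, NC1 resembled HC3 (r = 0.958) and NC2 resembled HC1 (r = 0.958) about as closely. Pax7 was read in all libraries, at 268 RPM in NC1, 8.25 in NC2, 4.34 in NC3 and 20.1 to 79.5 in hypercapnia. Myod1, the factor of activated satellite cells, was at 302, 26.5 and 7.92 RPM in NC1 to NC3 and at 87.2 to 257 RPM in hypercapnia. Myf5, another satellite cell marker, was at 218, 8.34 and 26.6 RPM in NC1 to NC3 and at 16.9 to 82.3 RPM in hypercapnia. NC2, not NC3, was the lowest library for Myf5. All 10 satellite cell markers were detected, with a summed level of 528 to 4158 RPM in normocapnia and 778 to 1588 RPM in hypercapnia. Their median difference, hypercapnia minus normocapnia in log2(RPM + 1), was 0.49, and it was 2.05 without NC1 and -0.56 without NC3. All 12 macrophage markers were detected too, at 12297 to 35046 RPM in normocapnia and 20132 to 25062 RPM in hypercapnia, with Csf1r at 337 to 537 RPM and Adgre1 at 70.5 to 429 RPM, with Lyz2, the lysozyme of myeloid cells, making up most of the sum in each library, and with C1qa at 0 in NC3 and HC3 and at most 0.452 RPM in any library. The summed markers of other cell types overlapped between the groups as well, with the number detected given first: 7 of 7 for neutrophils at 82.1 to 228 RPM against 105 to 329 RPM, 6 of 6 for endothelial cells at 88.5 to 216 RPM against 45.5 to 491 RPM, 6 of 6 for fibro-adipogenic cells at 1034 to 1767 RPM against 935 to 2230 RPM, 6 of 6 for myofibers at 239 to 4411 RPM against 345 to 2094 RPM, and 4 of 5 for lymphocytes at 7.91 to 16.3 RPM against 12.6 to 13.2 RPM. Single markers did differ: 1 of 12 macrophage markers, Adgre1, and 1 of 7 neutrophil markers, Mmp8, were called higher in hypercapnia without overlap. Mmp8 was at 7.54, 17.0 and 16.7 RPM in normocapnia and at 27.0 to 35.0 RPM in hypercapnia. In bulk RNA, fewer cells of a type and less RNA per cell cannot be told apart, and the part of cell makeup in the differences described here was not tested.

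Cells make cholesterol from acetyl-CoA, first through mevalonate to isoprenoid units, then through squalene to the first sterol, lanosterol, and from lanosterol through a series of demethylations and double-bond shifts. SREBP transcription factors are held in the endoplasmic reticulum by SCAP and INSIG proteins when sterols are plentiful, and when sterols fall they are carried to the Golgi, cut and sent to the nucleus, where they raise the genes of this pathway. LXR receptors sense oxidised sterols and raise, among others, genes that export cholesterol or lower its uptake. A dividing cell needs sterols for new membrane, and so a satellite cell that leaves quiescence does as well.

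SREBP binds sterol response elements in the promoters of its targets, usually beside sites for NF-Y, which reads CCAAT, and Sp1, which reads GGGCGG. Promoters from RefSeq (GRCm38.p6, 250 bases before to 50 bases after the annotated start, the entry listed first where a gene had several) were found for 25 of the 28 members, those of Stard4, Sqle and Fdft1 not being among them. Both strands were searched for a sterol response element core in a longer form, TCACNCCAC, and a shorter form, CACCCCA, which overlap where N is C. The promoters of 4 members are shown, in the 250 bases before the start, for the roles they stand for: Hmgcs1 as a mevalonate enzyme and the single member with the longer core, Srebf2 as the SREBP gene with the shorter core, Nsdhl as a late enzyme with neither, and Mylip as the LXR target that was lower in hypercapnia. Capitals mark TCACNCCAC, CACCCCA and CCAAT in either orientation.
Hmgcs1, chr13:119690101-119690350, plus strand: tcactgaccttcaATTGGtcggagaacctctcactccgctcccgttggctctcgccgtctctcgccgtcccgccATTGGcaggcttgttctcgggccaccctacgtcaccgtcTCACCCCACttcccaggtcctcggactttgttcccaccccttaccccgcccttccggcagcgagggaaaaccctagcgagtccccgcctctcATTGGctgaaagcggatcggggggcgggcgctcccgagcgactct
Srebf2, chr15:82147019-82147268, plus strand: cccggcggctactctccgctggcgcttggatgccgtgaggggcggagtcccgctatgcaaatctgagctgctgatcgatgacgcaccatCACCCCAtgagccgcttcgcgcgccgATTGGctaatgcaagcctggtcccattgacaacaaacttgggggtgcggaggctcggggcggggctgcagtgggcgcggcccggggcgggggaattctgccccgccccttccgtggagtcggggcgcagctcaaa
Nsdhl, chrX:72918271-72918520, plus strand: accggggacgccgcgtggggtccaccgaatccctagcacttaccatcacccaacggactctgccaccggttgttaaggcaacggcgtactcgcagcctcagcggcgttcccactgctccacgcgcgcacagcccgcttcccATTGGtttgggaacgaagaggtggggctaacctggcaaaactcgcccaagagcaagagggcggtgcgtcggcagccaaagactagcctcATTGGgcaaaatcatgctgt
Mylip, chr13:45389492-45389741, plus strand: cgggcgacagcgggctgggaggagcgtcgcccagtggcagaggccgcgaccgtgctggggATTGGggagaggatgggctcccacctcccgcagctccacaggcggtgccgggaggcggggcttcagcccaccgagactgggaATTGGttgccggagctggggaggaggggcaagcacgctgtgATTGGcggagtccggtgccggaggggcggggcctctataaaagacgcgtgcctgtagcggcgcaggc

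The longer core stood in the promoter of 1 of 25 members, at base -137 of Hmgcs1, and in 1.22% of all 27025 genes with a promoter entry. The shorter core was held by 3 of 25 members (12%), namely Hmgcs1, Srebf2 and Soat1, against 7.5% of all promoters and 7.67% of the 9523 promoters of genes whose mean reached 1 RPM. CCAAT was found in 20 of 25 members (80%) against 37.9% of all promoters and 38% of those of genes at 1 RPM or more. GGGCGG was found in 17 of 25 members (68%), against 35.9% of all promoters and 61.5% of those at 1 RPM or more. In the promoters shown, CCAAT lay at 3 places before the start in Hmgcs1, 1 in Srebf2, 2 in Nsdhl and 3 in Mylip. A match describes letters in this window and is not a measured binding site.

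Genes that were called higher in hypercapnia were found from the synthesis of HMG-CoA to the last reduction of the sterol ring, but 17 of 28 members overlapped between the groups. The difference was positive for 27 of 28 members, with a median of 0.73 on the log2(RPM + 1) scale, beside a median of 0.16 over the 12504 genes whose mean reached 1 RPM. Differences on this scale understate the change of genes with low values. By an unadjusted limma p under 0.05 and a change over 1.5-fold, 10 members were higher in hypercapnia and 1 was lower. Over all genes 1.43% were called higher and 1.14% lower. The 10 higher members were Hmgcs1, Pmvk, Lss, Cyp51, Nsdhl, Ebp, Dhcr7, Nr1h3, Stard4 and Aacs, and the lower one was Mylip. Hmgcs1, Pmvk, Lss, Cyp51 and Dhcr7 were not called once the like pairs HC1 with HC2 and HC3 with HC4 were averaged, nor with replicate number as a block, and of the synthesis enzymes Nsdhl and Ebp kept their calls in both. In limma 0 genes passed once p was adjusted for all 23930 tests (Benjamini-Hochberg), with 1114 genes at an unadjusted p under 0.05.

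The 11 called members were also the 11 whose groups did not overlap, since all 4 hypercapnia libraries lay above all 3 normocapnia libraries for 10 of them and below for Mylip. Over all genes 2.53% lay wholly above and 2.3% wholly below. Of the 8229 genes whose mean reached 10 RPM, 3.07% were called higher and 2.47% lower, and 4.96% lay wholly above and 4.67% wholly below. As the members were listed with this contrast in view, their counts are not read against these shares as a result.

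**Figure D1:**
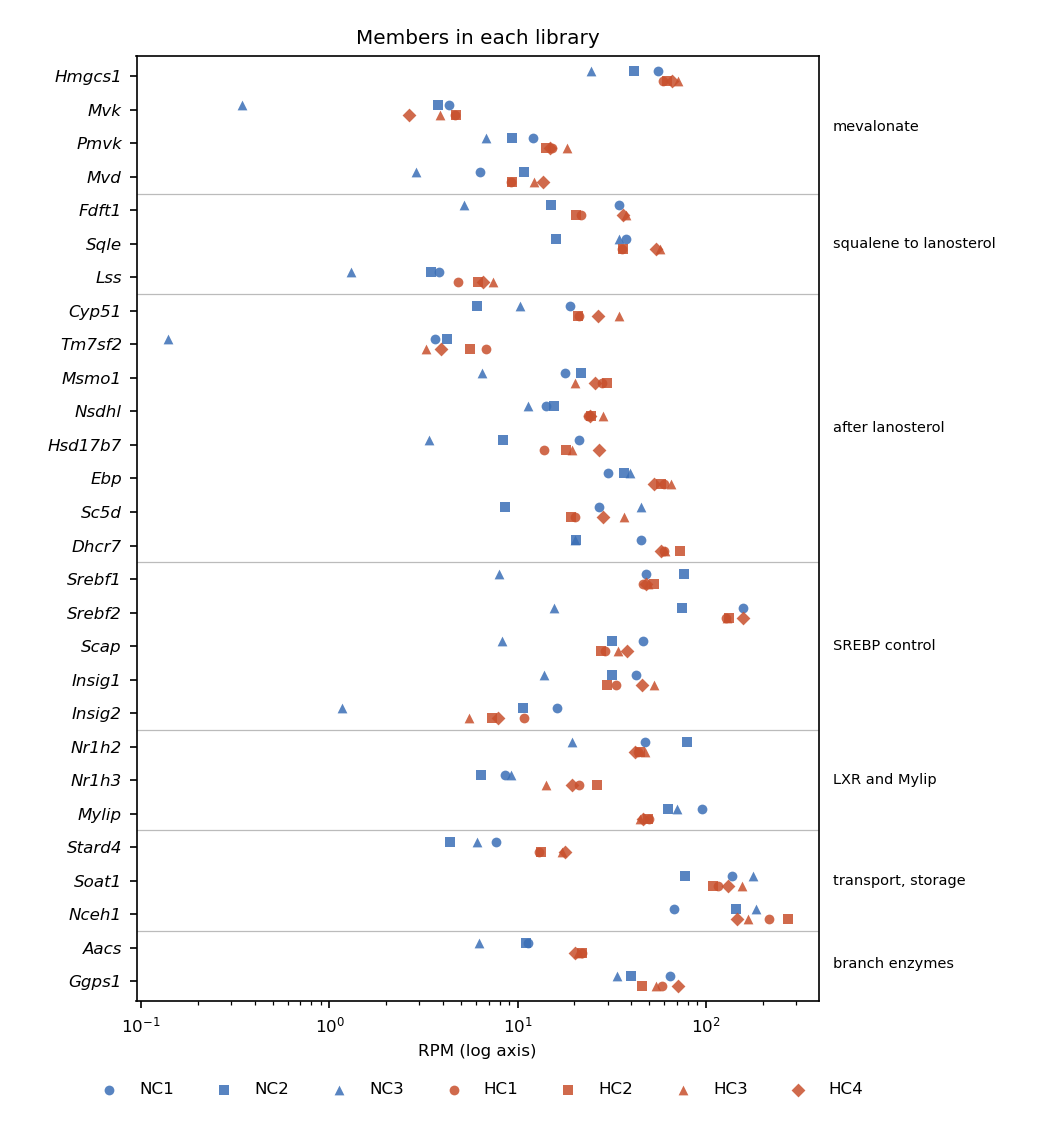
RPM of the 28 members (log axis) in each normocapnia library (blue) and hypercapnia library (red), 1 row per gene in the order of the pathway, with 1 marker per library. For 10 genes the red markers all lie to the right of the blue ones and for Mylip to the left, and NC3 (blue triangle) is the lowest library for 19 of 28 genes.

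The level in NC3 bears on many of these differences. NC3 was the lowest of the 7 libraries for 19 of the 28 members, and the lowest normocapnia library for 67.9% of members as against 56.2% of genes at 10 RPM or more. Without NC3 the median difference of the members was 0.39, with 22 of 28 positive, beside a median of -0.07 over genes at 1 RPM or more. Without NC3 limma called 7 members higher and 1 lower, where 0.982% of all genes were called higher and 1.59% lower, and the libraries were wholly apart for 11 members higher and 2 lower, where 7.35% and 12.0% of genes at 10 RPM or more were. Without NC1, the library with the highest sum of satellite cell markers, the median of the members was 0.93 beside 0.36 over genes at 1 RPM or more, and 14 members were called higher and 0 lower, where 6.25% of all genes were called higher and 2.07% lower.

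The mevalonate steps were represented by 4 genes with a median difference of 0.72. Hmgcs1, the cytosolic synthase that makes HMG-CoA, stood at 55.2, 41.5 and 24.4 RPM in NC1 to NC3 and at 59.0, 61.9, 71.0 and 65.7 RPM in HC1 to HC4. The groups did not overlap, but NC1 lay close under HC1, and the difference of 0.73 ± 0.27 (SE, n = 3 and 4) became 0.42 without NC3. Pmvk, phosphomevalonate kinase, stood at 12.1, 9.32 and 6.75 RPM in normocapnia and at 15.2, 14.2, 18.3 and 14.9 RPM in hypercapnia, again without overlap, and differed by 0.71 ± 0.19 (SE).

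The other mevalonate genes overlapped between the groups. Mvk, mevalonate kinase, was read at 4.33, 3.76 and 0.344 RPM in normocapnia and at 4.62, 4.72, 3.87 and 2.64 RPM in hypercapnia. Its value in NC3 rested on 5 reads, NC1 and NC2 lay among the hypercapnia libraries, and its difference of 0.59 turned to -0.043 without NC3. Mvd, the decarboxylase that yields the first isoprenoid unit, ranged from 2.89 to 10.8 RPM in normocapnia and from 9.25 to 13.7 RPM in hypercapnia, a difference of 0.78 that was 0.36 without NC3 and 1.17 without NC2, where it was called.

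From squalene to lanosterol, 3 of 3 genes had a positive difference, and 1 was called. Lss, which folds oxidised squalene into lanosterol, stood at 3.84, 3.46 and 1.31 RPM in normocapnia and at 4.79, 6.13, 7.37 and 6.57 RPM in hypercapnia. All hypercapnia values were above all normocapnia values, with a difference of 0.96 ± 0.30 (SE) that was 0.62 without NC3. Fdft1, squalene synthase, stood at 34.7, 15.1 and 5.16 RPM in normocapnia and at 21.6, 20.3, 37.5 and 36.2 RPM in hypercapnia. NC1 was above HC1 and HC2 there, and the difference of 0.92 ± 0.64 (SE) was 0.27 without NC3 and 1.54 without NC1, where it was called. Sqle, squalene monooxygenase, ranged from 15.9 to 37.7 RPM in normocapnia and from 35.6 to 56.7 RPM in hypercapnia, and here NC2 was the lowest library, the difference being 0.68 and 0.30 without NC2.

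The enzymes after lanosterol were the largest group, with 8 of 8 differences positive at a median of 0.89, and 4 of 8 called. Without NC3 the median was 0.70 and all 8 stayed positive. Nsdhl, the dehydrogenase that takes part in removing the methyl groups at carbon 4, had the tightest replicates of these enzymes relative to its difference. It stood at 14.1, 15.5 and 11.3 RPM in normocapnia and at 23.5, 24.6, 28.2 and 24.0 RPM in hypercapnia. The gap between the groups was wider than the range within either, and the difference of 0.84 ± 0.12 (SE) was 0.72 without NC3.

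Ebp, the sterol isomerase, also separated by a clear gap, at 30.0, 36.4 and 39.2 RPM in normocapnia against 59.6, 57.3, 65.0 and 52.7 RPM in hypercapnia. For Ebp the NC3 library was the highest of the normocapnia libraries, so that the difference of 0.72 ± 0.11 (SE) was 0.80 without it. Ebp was not called under median-of-ratios scaling (0.58), in edgeR (0.56) or in DESeq2 (0.52). Dhcr7, which carries out a final reduction to cholesterol, stood at 45.1, 20.4 and 20.2 RPM in normocapnia and at 59.4, 72.5, 60.6 and 57.5 RPM in hypercapnia. All hypercapnia libraries of Dhcr7 were above NC1, its highest normocapnia library, and the difference was 1.20 ± 0.31 (SE). Cyp51, the lanosterol demethylase, stood at 19.0, 6.07 and 10.3 RPM in normocapnia and at 21.02, 21.004, 34.7 and 26.6 RPM in hypercapnia. Its groups were apart by a narrow margin between NC1 and HC1 or HC2, and it differed by 1.17 ± 0.39 (SE).

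The remaining late enzymes overlapped. Msmo1, the carbon 4 methyl oxidase, ranged from 6.47 to 21.5 RPM in normocapnia and from 20.1 to 29.9 RPM in hypercapnia. Hsd17b7, a reductase of the same demethylation, ranged from 3.37 to 21.1 RPM and from 13.7 to 26.9 RPM. The differences of Msmo1 and Hsd17b7, 0.86 and 1.05, were 0.37 and 0.48 without NC3. Msmo1 was called without NC2, at 1.17, and Hsd17b7 without NC1, at 1.65, and after quantile normalization, at 0.76. Tm7sf2, a sterol reductase, was at 3.61 and 4.19 RPM in NC1 and NC2, at 0.138 RPM (2 reads) in NC3, and at 3.25 to 6.76 RPM in hypercapnia, so that its difference of 0.93 was 0.22 without NC3. Sc5d, the sterol desaturase, was the exception in the group, with 27.1, 8.55 and 45.4 RPM in normocapnia and 20.2, 19.2, 36.8 and 28.2 RPM in hypercapnia. Its highest and lowest library were both normocapnic, and its difference of 0.18 ± 0.59 (SE) was -0.32 in edgeR and -0.38 in DESeq2.

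**Figure D2:**
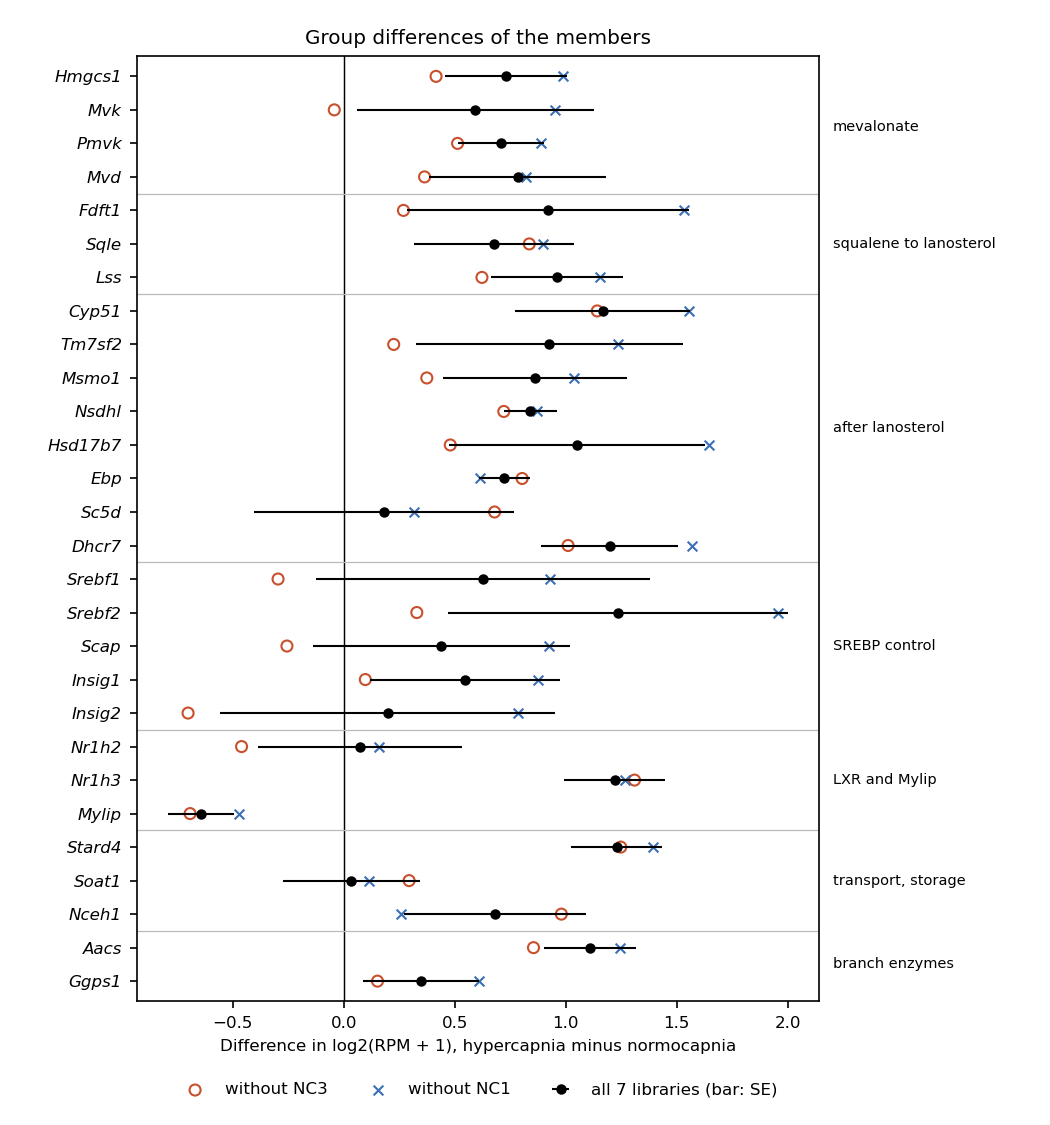
Difference in log2(RPM + 1), hypercapnia minus normocapnia, for the 28 members (black points, bars are the SE from limma, 3 and 4 libraries), with the value without NC3 (open red circles) and without NC1 (blue crosses). Without NC3, 3 of the 5 SREBP control genes lie below 0, whereas Nsdhl, Ebp, Nr1h3, Stard4 and Mylip move little. Without NC1, Mylip goes from -0.65 to -0.47.

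The genes that govern SREBP overlapped between the groups, and 0 of 5 were called. Srebf2, which encodes the SREBP that acts chiefly on cholesterol genes, stood at 157, 74.4 and 15.6 RPM in normocapnia and at 127, 133, 129 and 158 RPM in hypercapnia. The hypercapnia libraries lay close together, NC1 lay beside the highest of them, and the normocapnia libraries spanned a ratio of 10.1 as against 1.24 in hypercapnia. The difference of Srebf2 was 1.24 ± 0.77 (SE), and it was 0.33 without NC3 and 1.96 without NC1, where it was called. Srebf1, whose SREBP products act more on fatty acid genes, stood at 48.2, 76.0 and 7.99 RPM in normocapnia and at 46.4, 53.1, 49.4 and 47.8 RPM in hypercapnia. NC2 was its highest library and NC3 its lowest, and its difference turned from 0.63 to -0.30 without NC3.

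Scap, the sterol-sensing escort of SREBP, ranged from 8.26 to 46.5 RPM in normocapnia and from 27.6 to 37.98 RPM in hypercapnia, so that hypercapnia lay inside the normocapnia range, and its difference of 0.44 was -0.26 without NC3. Insig1, the retention protein whose gene is itself an SREBP target, ranged from 13.8 to 42.4 RPM and from 29.8 to 53.1 RPM, with a difference of 0.55 ± 0.43 (SE) that was 0.10 without NC3. Insig2, the second retention protein, stood at 16.1, 10.6 and 1.17 RPM in normocapnia and at 10.7, 7.34, 5.50 and 7.85 RPM in hypercapnia. NC1 was the highest library of Insig2 and NC3 the lowest, and its difference of 0.20 was -0.10 after quantile normalization and -0.70 without NC3. The median of these 5 genes was 0.55 with all libraries and -0.26 without NC3, when 2 of 5 were positive.

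Of the LXR genes, one receptor was higher, the other was not, and the target Mylip was lower. Nr1h3, which encodes LXR alpha, the form abundant in macrophages and liver, stood at 8.56, 6.41 and 9.16 RPM in normocapnia and at 21.2, 26.5, 14.2 and 19.5 RPM in hypercapnia. All hypercapnia libraries were above all normocapnia libraries, HC3 being nearest to them, and the difference of 1.22 ± 0.23 (SE) was 1.31 without NC3 and 1.27 without NC1. Macrophage markers overlapped between the groups, as given above, but Adgre1 was at 392 and 429 RPM in HC1 and HC2, at 151 and 184 RPM in HC3 and HC4 and at 70.5 to 149 RPM in normocapnia, and its part in the level of Nr1h3 was not tested. Nr1h2, the broadly expressed LXR beta, stood at 47.5, 79.3 and 19.5 RPM in normocapnia and at 43.3, 44.8, 47.3 and 42.0 RPM in hypercapnia. Hypercapnia lay within the normocapnia range for Nr1h2, and its difference of 0.075 was -0.063 after median-of-ratios scaling, -0.070 after quantile normalization and -0.46 without NC3.

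Mylip, the ubiquitin ligase that LXR raises and that sends lipoprotein receptors to degradation, stood at 95.3, 62.5 and 69.9 RPM in normocapnia and at 49.9, 48.9, 44.6 and 46.2 RPM in hypercapnia. In limma on RPM, with all libraries and no further scaling, it was the single member with a negative difference, -0.65 ± 0.15 (SE). All hypercapnia libraries were below all normocapnia libraries. NC1, the highest library, carried part of the difference, which was -0.47 without NC1, where Mylip was not called, and -0.69 without NC3. The negative sign held under median-of-ratios scaling (-0.79) and quantile normalization (-0.70).

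Among the genes of sterol transport and storage, Stard4, a carrier that moves cholesterol between membranes and is an SREBP target, stood at 7.63, 4.36 and 6.06 RPM in normocapnia and at 12.97, 13.2, 17.2 and 17.9 RPM in hypercapnia. The lowest hypercapnia library was well above the highest normocapnia library, with a difference of 1.23 ± 0.20 (SE) that was 1.25 without NC3. Soat1, which esterifies cholesterol for storage, ranged from 76.8 to 177 RPM in normocapnia and from 108 to 156 RPM in hypercapnia, with a difference of 0.035 that was -0.11 after median-of-ratios scaling. Nceh1, a hydrolase of stored cholesterol esters in macrophages, stood at 67.1, 143 and 184 RPM in normocapnia and at 216, 272, 168 and 146 RPM in hypercapnia. NC3 was above HC3 and HC4, so the groups of Nceh1 overlapped, and its difference of 0.68 was 0.98 without NC3 and 0.26 without NC1.

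The branch enzymes were Aacs and Ggps1. Aacs, which turns acetoacetate into a precursor of cytosolic lipid and sterol synthesis, stood at 11.4, 11.1 and 6.20 RPM in normocapnia and at 21.8, 21.8, 20.8 and 20.0 RPM in hypercapnia. The 4 hypercapnia libraries differed by a ratio of 1.09 and all lay above NC1, with a difference of 1.11 ± 0.21 (SE) that was 0.85 without NC3. Ggps1, which diverts isoprenoid units to geranylgeranyl diphosphate for protein prenylation, ranged from 33.5 to 64.2 RPM in normocapnia and from 45.6 to 70.6 RPM in hypercapnia and differed by 0.35, or by 0.15 without NC3 and 0.61 without NC1, where it was called.

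The members varied more within normocapnia than within hypercapnia. The ratio of the highest to the lowest library was larger among the 3 normocapnia libraries for 27 of 28 members, Nr1h3 being the exception, and for 85.9% of genes at 10 RPM or more. Relative to its own mean over the 7 libraries, the median member lay at 0.10 in NC1, -0.32 in NC2 and -1.09 in NC3, and at 0.22, 0.27, 0.46 and 0.39 in HC1 to HC4, in log2(RPM + 1). For genes averaging at least 10 RPM the same median was 0.20 in NC1, 0.02 in NC2 and -0.43 in NC3, and it lay between -0.01 and 0.10 in the hypercapnia libraries. NC1 thus lay nearest to hypercapnia and NC3 farthest, for the members, while satellite cell markers summed to 4158 RPM in NC1, 993 RPM in NC2 and 528 RPM in NC3 and macrophage markers to 12297, 23450 and 35046 RPM. The macrophage order is that of Lyz2, at 8354, 13313 and 29108 RPM, since without it the other 11 markers summed to 3943, 10137 and 5938 RPM, and Adgre1 was lowest in NC3. What part these cell types have in the members' levels was not tested. HC3 and HC4 were both above HC1 and HC2 for 12 of 28 members (42.9%, against 40.3% of genes at 10 RPM or more), among them Sqle, Fdft1 and Stard4, and both below for 7 (25%, against 28.2%), among them Nr1h3 and Nceh1.

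**Figure D3:**
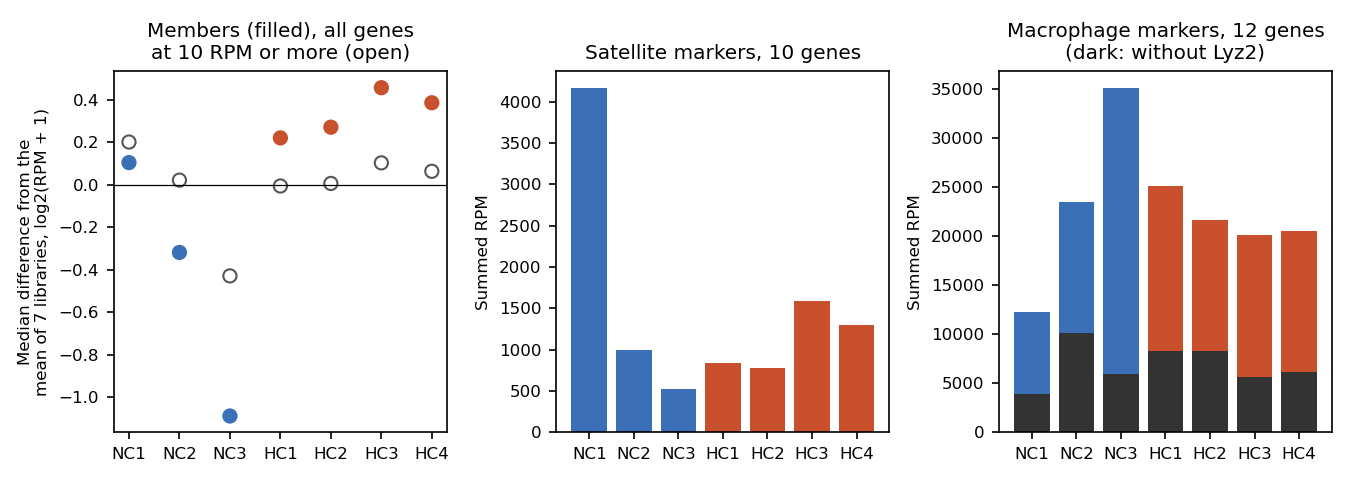
Left, the median over the 28 members (filled) and over genes averaging at least 10 RPM (open) of the difference from each gene's mean over the 7 libraries, in log2(RPM + 1). Middle and right, summed RPM of the satellite cell and macrophage markers in each library (blue normocapnia, red hypercapnia), with the macrophage sum without Lyz2 in dark bars. The members and the satellite markers are lowest in NC3, and the macrophage sum is highest there with Lyz2 but not without it.

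Other genes of sterol biology, 75 in the table from 7 lists written from general knowledge, gave 1 called higher and 3 called lower. The shares over all genes were 1.43% higher and 1.14% lower. The median difference of the 75 genes was 0.13, and it was -0.0068 without NC3 and 0.33 without NC1. The 4 calls became 1 without NC3, 8 without NC2 and 16 without NC1, where 6.25% of all genes were called higher and 2.07% lower. All hypercapnia libraries lay above all normocapnia libraries for 3 of the 75 and below for 3. The shares were 2.53% above and 2.3% below over all genes, and 4.96% and 4.67% over genes at 10 RPM or more. Whether the 75 genes differ from the 28 members was not tested. Of 7 further synthesis genes 0 were called higher and 2 lower. Cyb5r3, a reductase that passes electrons to sterol enzymes among others, was at 271, 256 and 332 RPM in normocapnia and at 154, 183, 213 and 167 RPM in hypercapnia (log2 difference -0.67 ± 0.14 SE, limma adjusted p = 0.712). Arv1, an endoplasmic reticulum protein of sterol balance, was at 5.58, 5.56 and 3.37 RPM in normocapnia and 3.13, 2.86, 3.25 and 1.63 RPM in hypercapnia (-0.65 ± 0.24 SE, limma adjusted p = 0.915). Both had all hypercapnia libraries below all normocapnia libraries, and neither passed the adjustment.

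Of 12 genes that process or degrade SREBP regulators, 0 were called, and those with the smallest p were Rnf139 (-0.55) and Faf2 (-0.23), both parts of the endoplasmic reticulum degradation machinery. The fatty acid genes under SREBP had the highest median of the other lists, 0.61 over 11 genes with 9 positive, but 0 were called, and the median was 0.36 without NC3 and 1.08 without NC1. Fads1, a fatty acid desaturase, was at 39.9 to 78.01 RPM in normocapnia and 71.3 to 94.4 RPM in hypercapnia, and Fads2, its partner, was at 8.25, 1.41 and 0.344 RPM in normocapnia and 4.15, 4.07, 10.7 and 12.8 RPM in hypercapnia, so both overlapped. Among 12 LXR targets and partners 0 were called higher and 1 lower, with 8 of 12 differences negative. The called gene was Ucp2, a mitochondrial carrier, at 2585, 3645 and 5251 RPM in normocapnia and 2059, 2764, 2004 and 1928 RPM in hypercapnia, where HC2 lay above NC1 (-0.76 ± 0.27 SE, limma adjusted p = 0.915).

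Uptake, transport and storage genes (16) had 0 calls, with Osbpl2, a lipid transfer protein, at -0.41 without overlap and Npc2, which hands cholesterol out of the lysosome, at 0.74. Of 12 genes that use isoprenoid units, 1 was called higher: Dhdds, a subunit of the enzyme that makes dolichol chains, at 6.42, 6.93 and 4.75 RPM in normocapnia and 10.1, 11.3, 9.56 and 8.33 RPM in hypercapnia, without overlap (0.63 ± 0.15 SE, limma adjusted p = 0.777). Of 5 oxysterol genes 0 were called, with Ch25h, which makes 25-hydroxycholesterol, at 0.55 without overlap (at most 6.33 RPM in normocapnia and at least 6.81 RPM in hypercapnia) and Cyp27a1, which makes 27-hydroxycholesterol, at -0.34. Without NC3, Arv1 was the one of the 4 named called genes that kept its call, at -0.85. Cyb5r3 was then at -0.56, Ucp2 at -0.50 and Dhdds at 0.49.

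**Figure D4:**
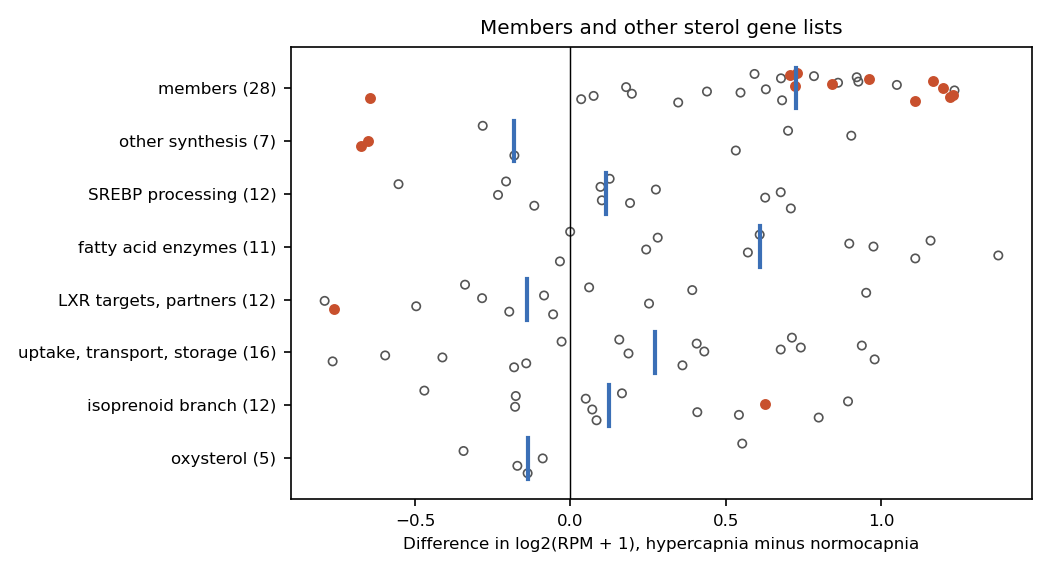
Difference in log2(RPM + 1), hypercapnia minus normocapnia, for each gene of the members and of 7 other sterol lists (number of genes in brackets). Filled red points are called genes, open points are not, and blue bars are medians. The members centre on 0.73 and the other lists between -0.18 and 0.61.

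Fits on whole reads gave like counts for the members, which describe the same values again. edgeR called 9 members higher and 1 lower, where 6.03% of genes tested were called in either direction, and DESeq2 called 9 higher and 1 lower, where 5.45% were. Over all genes these tools called more lower than higher genes, 294 higher and 508 lower in edgeR and 519 and 785 in DESeq2, whereas limma on RPM called 343 higher and 272 lower. The median difference of the members was 0.65 in edgeR and 0.61 in DESeq2, with the median of genes at 1 RPM or more at -0.01 and -0.04, and 23 of 28 were positive in each. After Benjamini-Hochberg adjustment 0 genes passed in edgeR and 29 in DESeq2, of which 1, Aacs, was a member. Nsdhl, Stard4 and Aacs were called in all 16 alternatives run, Nr1h3 and Mylip in 15, Dhcr7 in 14, Ebp in 13, Lss in 12, Pmvk and Cyp51 in 10 and Hmgcs1 in 7. When 1 library was left out, Pmvk was not called without NC3, Lss without HC3, Cyp51 without NC2, NC3, HC3 or HC4, Mylip without NC1, and Hmgcs1 without any library but NC1.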

How the data were processed

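Sorted Pax7-GFP cells of 3 normocapnia and 4 hypercapnia libraries were profiled by the authors with an AmpliSeq mouse transcriptome panel of 1 amplicon per gene on an Ion S5 instrument. The deposited values are RPM, reads scaled by the total assigned to the panel, and the authors' processing notes name the Transcriptome Analysis Console. The sources used here name neither the aligner nor the genome build, and no positions are given for the measured genes. Panel RPM depends on the amplicon, so levels were not compared between genes.

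Whole reads were recovered from the RPM steps, 100% of values lying within 0.05 of a whole read. A floor of 3 reads corresponds to 0.128 to 0.207 RPM, and 27 of 28 members were above it in all libraries (it covers counting error only). limma 3.58.1 (R 4.3.3) was fitted to log2(RPM + 1) for the whole table of 23930 genes, unfiltered. Calls needed a change over 1.5-fold and an unadjusted p under 0.05, as in the study. edgeR 4.0.16 and DESeq2 1.42.0 on whole reads, pseudocounts of 0.1 and 5 RPM, a filter at 1 RPM, median-of-ratios scaling, quantile normalization, leaving out each library and a replicate block were alternatives. Averaging HC1 with HC2 and HC3 with HC4 was added after their likeness was seen. The scripts were tested on simulated data.

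The 28 members and all gene lists were chosen with earlier results of these data known. All members were named, and from each other sterol list the called genes or, failing any, the 2 with the smallest p. From the marker lists, Pax7, Myf5, Myod1, Adgre1, Csf1r, C1qa, Mmp8 and Lyz2 were named, the last 3 after their values were seen. Acat2, Idi1, Fdps, Erg28 and Hsd3b7 were not analysed here.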

Additional observations from a re-analysis of the deposited data

How the results depend on the processing

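The 11 called members (615 of all genes) became 6 with a replicate block (598), which also leaves HC4 without a partner and so out of the estimate, where leaving out HC4 alone gave 9 (477). They became 6 with the hypercapnia pairs averaged (222), 8 to 14 when a library was left out (376 to 1990), and stayed within 1.5 times under the other alternatives. Whether replicate numbers pair the libraries was not settled, since deviations from the means of so few libraries offset each other. Deviations correlated at -0.35 for NC1 with HC1, 0.50 for NC2 with HC2 and -0.04 for NC3 with HC3. Across numbers they correlated at 0.45 for NC2 with HC1 and 0.39 for NC1 with HC3, among others. The median difference ran from 0.39 (without NC3) to 0.93 (without NC1). Members with groups apart ran from 11 to 16 with a library left out. They were 16 without NC1, where 21.2% of genes at 10 RPM or more lay wholly above and 10.3% below. Under median-of-ratios scaling 9 members were apart, where 3.9% of genes at 10 RPM or more lay wholly above and 5.2% below. Under quantile normalization 9 were apart, where 5.24% lay wholly above and 4.74% below. The other sterol genes called, 4 with all libraries, were 2 at a pseudocount of 5 RPM and 1 (without NC3) to 16 (without NC1) with a library left out. Differences that changed sign were Sc5d (edgeR -0.32, DESeq2 -0.38), Insig2 (quantile -0.10, edgeR -0.13, DESeq2 -0.16), Nr1h2 (median-of-ratios -0.063, quantile -0.070, edgeR -0.18, DESeq2 -0.21) and Soat1 (median-of-ratios -0.11, edgeR -0.24, DESeq2 -0.29). With a library left out, Mvk ran from -0.043 to 0.95, Sc5d from -0.46 to 0.68, Srebf1 from -0.30 to 1.25, Scap from -0.26 to 0.92, Insig2 from -0.70 to 0.79, Nr1h2 from -0.46 to 0.52 and Soat1 from -0.30 to 0.29. The cause was not tested. Of the members' single values under these alternatives, 389 kept sign and call, 32 lost a call, 7 gained one and 20 changed sign. Few reads limit Mvk and Tm7sf2 in NC3.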
